A study of Arabidopsis thaliana with 16 samples.

Results

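The CYCLING DOF FACTOR (CDF) genes were followed in seedlings and petals of Arabidopsis thaliana in which the flowering-time gene CONSTANS (CO) was normal, constitutively overexpressed or lost. The 6 members were taken by locus as the known CDF genes, at a point when earlier results of these data were known: CDF1 (AT5G62430), CDF2 (AT5G39660), CDF3 (AT3G47500), CDF4 (AT2G34140), CDF5 (AT1G69570) and CDF6 (AT1G26790), out of 32833 loci in the table. All 6 passed the filter on low values (1 FPKM or more in at least 2 libraries) in the seedling, petal and joint fits. CDF6 did so only through 35S:CO libraries in each fit, as did CDF5 in the seedling fit. The data were 16 stranded mRNA libraries in 8 groups of 2 biological replicates. Seedlings 10 days old were harvested whole at ZT16, that is 16 h after lights on, in the wild type Col-0 and in 35S:CO plants, where the viral 35S promoter drives CO in most tissues rather than in phloem companion cells alone. Petals came from 3 genotypes, each at ZT4 and ZT16: Col-0, 35S:CO and the CO null mutant co-10. No co-10 seedlings were analysed here. All plants grew in long days of 16 h light and 8 h dark. Flower age and the number of plants per library were not stated in the labels, so the p-values below measure the spread between these libraries.

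CDF proteins are DOF zinc finger transcription factors that bind the promoters of CO and of its target FT and repress them early in the day. The kelch-repeat F-box protein FKF1, in a complex with GIGANTEA (GI), marks CDF proteins for degradation in the long-day afternoon, and this permits CO to be transcribed. CDF transcription is itself under the clock, with repression by the pseudo-response regulators PRR9, PRR7 and PRR5, and CDF1 recruits TOPLESS as a corepressor. The CDF genes therefore stand upstream of CO, and the comparisons below asked whether their transcripts differ when the amount of CO is changed downstream.

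The 6 genes lie apart in the genome (TAIR10.1). CDF1 is at chr5:25069093-25071111 on the minus strand, CDF2 at chr5:15878698-15881537 on the plus strand, CDF3 at chr3:17503883-17506124 on the minus strand, CDF4 at chr2:14413694-14414788 on the minus strand, CDF5 at chr1:26161528-26163715 on the minus strand and CDF6 at chr1:9273684-9275193 on the minus strand. Of the 50-base stretches in their exons, 12 of 2323 in CDF2 also occur elsewhere in the genome and none in the other members, so little of their signal can be shared with a near-identical copy. The 250 bases before the annotated start are shown for CDF2, CDF3, CDF5 and CDF6, the members in whose promoters a searched motif was found; capitals mark the matches. The sequences are read 5′ to 3′ on the strand of the gene from the RefSeq genome TAIR10.1.
CDF2, chr5:15878448-15878697, plus strand: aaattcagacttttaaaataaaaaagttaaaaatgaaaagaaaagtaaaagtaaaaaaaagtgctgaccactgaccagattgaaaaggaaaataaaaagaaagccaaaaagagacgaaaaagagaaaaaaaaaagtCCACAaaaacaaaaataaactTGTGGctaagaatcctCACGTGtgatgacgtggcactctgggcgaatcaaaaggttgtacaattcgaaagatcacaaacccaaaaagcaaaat
CDF3, chr3:17506125-17506374, minus strand: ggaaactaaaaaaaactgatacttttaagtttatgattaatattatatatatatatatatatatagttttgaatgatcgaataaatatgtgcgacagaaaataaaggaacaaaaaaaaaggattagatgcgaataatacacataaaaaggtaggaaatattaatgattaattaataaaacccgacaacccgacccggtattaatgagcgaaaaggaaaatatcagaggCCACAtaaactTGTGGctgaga
CDF5, chr1:26163716-26163965, minus strand: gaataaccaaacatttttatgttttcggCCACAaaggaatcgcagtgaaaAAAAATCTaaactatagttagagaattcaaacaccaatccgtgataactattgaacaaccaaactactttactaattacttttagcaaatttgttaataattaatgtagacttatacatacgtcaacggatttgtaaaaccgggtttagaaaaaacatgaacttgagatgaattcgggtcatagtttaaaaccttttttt
CDF6, chr1:9275194-9275443, minus strand: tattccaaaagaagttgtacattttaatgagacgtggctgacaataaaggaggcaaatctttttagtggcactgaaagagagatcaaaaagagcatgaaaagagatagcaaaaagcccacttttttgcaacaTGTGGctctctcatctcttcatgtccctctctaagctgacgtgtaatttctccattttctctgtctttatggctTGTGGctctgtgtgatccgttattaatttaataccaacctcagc

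Motifs were searched on both strands of a window from 250 bases before to 50 after the start. They were the evening element AAATATCT, the CCA1-binding site AAAAATCT, the G-box CACGTG and the CO-responsive element (TGTG and ATG with NN or NNN between them). CCACA was searched as a separate pattern, which the CO-responsive element as written does not require. No evening element and no CO-responsive element was matched in the window of any member, and the windows of CDF1 and CDF4 held no match at all. Positions are counted back from the start. CDF2 held a G-box at -77 and CCACA on the strand of the gene at -114 and on the other strand at -93. CDF3 held CCACA on the strand of the gene at -22 and on the other at -11, and CDF6 held it on the other strand at -118 and -44. CDF5 held CCACA at -222 and the CCA1-binding site at -200. Among 27443 promoters of the same length, 33.6% held CCACA, 8.59% the CO-responsive element, 7.88% the CCA1-binding site, 7.68% the G-box and 5.65% the evening element. The matches are a description of these windows and no site was tested.

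The 35S:CO labels were checked on CO itself. CO stood at 1.91 and 2.098 FPKM in Col-0 seedlings and at 315 and 297 FPKM in 35S:CO seedlings. In petals the 4 libraries of 35S:CO held 414 to 625 FPKM of CO, where reads of the transgene and of the endogenous gene cannot be told apart. The 8 petal libraries of Col-0 and co-10 held 0.0256 to 0.703 FPKM, and co-10 differed from Col-0 over both times by -0.14 ± 0.24 (SE, n = 4 libraries each) on the log2(FPKM + 1) scale. CO transcript was thus near 0 in wild-type petals at both times sampled, so the co-10 comparison sets a mutant against a wild type with little CO transcript of its own. For the same reason the level of CO could not check the co-10 label against Col-0. The petal identity genes AP3 and PI summed to 731 to 1840 FPKM in petals and to 0.215 to 2.73 FPKM in seedlings. Petal libraries also held the pollen gene VGD1 at 429 to 2830 FPKM, with the anther gene A9 at 0 in all libraries. Estimated depth was 56030000 to 63340000 reads in seedlings and 5219000 to 22010000 in petals, and ribosomal RNA loci took 3.82% to 48.8% of the summed FPKM in petals. Correlation between replicates across loci ran from 0.93 (co-10 petals at ZT4) to 0.995.

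Each member had its own profile over the 8 groups. CDF3, a member known to act with CDF1, CDF2 and CDF5 in delaying flowering, reached the highest level of the family. It stood in petals at ZT4 at 225 and 308 FPKM in Col-0, 246 and 181 FPKM for 35S:CO, and 265 and 339 FPKM in co-10. At ZT16 it stood at 4.69 and 2.43 FPKM in Col-0 petals, 14.3 and 23.7 FPKM for 35S:CO petals, and 7.82 and 3.22 FPKM in co-10 petals. Every ZT4 petal library was above every ZT16 library of either tissue. In seedlings CDF3 was at 4.02 and 3.503 FPKM in Col-0 and at 15.4 and 16.3 FPKM for 35S:CO. Of the summed FPKM of the 6 genes, CDF3 made up 80.0% to 89.6% in petals at ZT4, 11.8% to 34.0% in petals at ZT16 and 30.8% to 37.2% in seedlings. At ZT4 the libraries of Col-0 overlapped those of both other genotypes, while 35S:CO lay below co-10. Col-0 and co-10 petals at ZT16 and Col-0 seedlings overlapped.

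CDF5 was the second most abundant member in ZT4 petals, at 28.7 and 29.6 FPKM in Col-0, 28.1 and 27.2 FPKM for 35S:CO, and 17.4 and 22.2 FPKM in co-10. At ZT16 it was at 3.88 and 4.53 FPKM in Col-0 petals, 14.1 and 19.3 FPKM for 35S:CO petals, and 4.25 and 7.18 FPKM in co-10 petals. Col-0 seedlings had the lowest level, 0.400 and 0.811 FPKM, and 35S:CO seedlings 5.31 and 4.46 FPKM. The 35S:CO libraries lay above those of Col-0 at ZT16 in both tissues, while at ZT4 they lay just below them.

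CDF6 was close to absent wherever CO was not overexpressed. It was listed in Col-0 seedlings at 0.0856 and 0.0668 FPKM, which corresponds to about 7.0 and 5.8 reads. In 35S:CO seedlings it was at 8.16 and 7.70 FPKM, about 650.5 and 595.8 reads. In petals CDF6 was at 3.95 and 3.36 FPKM at ZT4 and at 2.53 and 4.35 FPKM at ZT16 in 35S:CO. The Col-0 petals held 0.114 and 0 FPKM at ZT4 and 0 and 0.204 FPKM at ZT16. The co-10 petals held 0.813 and 0 FPKM at ZT4 and 0.0989 and 0 FPKM at ZT16. All 6 libraries of 35S:CO were above all 10 others, and the groups of the 10 others overlapped. At the petal depths a value of 0 says only that no read was assigned.

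CDF1, the founding member and a repressor of both CO and FT, was at 2.92 and 3.61 FPKM in Col-0 seedlings and at 11.8 and 11.0 FPKM in 35S:CO seedlings, its highest group. In petals at ZT4 it was at 5.36 and 5.48 FPKM in Col-0, 4.45 and 2.69 FPKM for 35S:CO, and 7.65 and 6.17 FPKM in co-10. At ZT16 it was at 4.53 and 1.27 FPKM in Col-0, 4.31 and 5.13 FPKM for 35S:CO, and 2.58 and 1.05 FPKM in co-10. From the petals of 35S:CO at ZT16 downwards, neighbouring groups in the order of CDF1 levels overlapped.

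CDF2, which acts redundantly with CDF1 in repressing CO, was at 1.41 and 1.83 FPKM in Col-0 seedlings and at 6.37 and 5.76 FPKM in 35S:CO seedlings. Petals held more of it, 8.64 and 13.1 FPKM in Col-0, 9.25 and 9.86 FPKM for 35S:CO and 14.6 and 10.9 FPKM in co-10 at ZT4. At ZT16 CDF2 was at 7.89 and 8.08 FPKM in Col-0, 10.3 and 12.5 FPKM for 35S:CO, and 6.24 and 8.06 FPKM in co-10. The 35S:CO petals lay above both other genotypes at ZT16 and inside the range of Col-0 at ZT4.

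CDF4, known from the differentiation of root columella cells, was low in seedlings, at 1.97 and 1.57 FPKM in Col-0 and 1.18 and 1.04 FPKM for 35S:CO. It ran opposite to CDF3 in petals. At ZT4 it was at 1.71 and 0.358 FPKM in Col-0, 0.631 and 2.22 FPKM for 35S:CO, and 0.692 and 0 FPKM in co-10. At ZT16 CDF4 was at 4.85 and 4.13 FPKM in Col-0, 6.77 and 4.77 FPKM for 35S:CO, and 3.93 and 6.92 FPKM in co-10. Every ZT16 petal library was above every ZT4 petal library, and the 3 genotypes overlapped within each time.

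**Figure D1:**
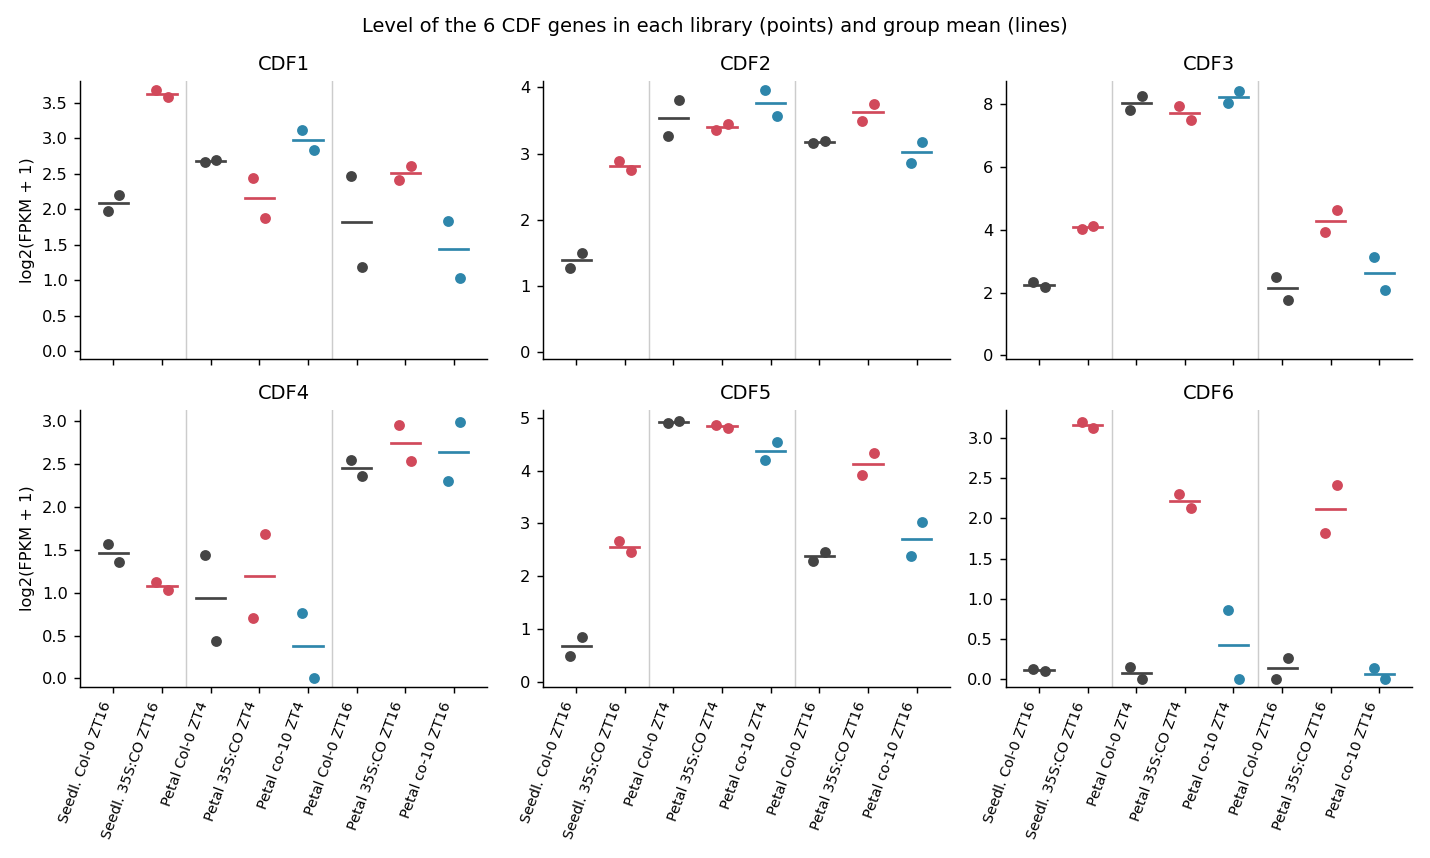
Level of each CDF gene, as log2(FPKM + 1), in the 16 libraries (points; lines are means of 2 libraries) of the 8 groups, with Col-0 in grey, 35S:CO in red and co-10 in blue and grey rules between seedlings, ZT4 petals and ZT16 petals. CDF6 is raised in the 6 libraries of 35S:CO, and CDF3 and CDF5 stand highest in petals at ZT4.

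Overexpression of CO in seedlings came with higher transcript levels of 5 of the 6 repressors upstream of it. CDF6 rose most, by 3.05 ± 0.11 (log2 difference ± SE, n = 2 libraries each, limma with Benjamini-Hochberg adjusted p = 0.000712). The rises were 1.88 ± 0.17 for CDF5 (adjusted p = 0.00645) and 1.83 ± 0.10 for CDF3 (adjusted p = 0.00191) by the same limma fit. For CDF1 it was 1.54 ± 0.12 (limma adjusted p = 0.00432) and for CDF2 1.44 ± 0.13 (limma adjusted p = 0.00639). CDF4 differed by -0.39 ± 0.13 and was not called (limma adjusted p = 0.129). Higher calls made up 5.5% of the 19214 genes tested in seedlings. The median difference of the 6 genes was 1.68, against -0.09 over all genes. As ratios of mean FPKM these are 8.07 for CDF5, 4.22 for CDF3, 3.75 for CDF2 and 3.48 for CDF1, and 104 for CDF6, whose denominator rests on about 7.0 and 5.8 reads. The summed FPKM of the family was 10.8 and 11.4 in Col-0 and 48.2 and 46.3 in 35S:CO.

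These calls rest on both 35S:CO seedling libraries. Without 35S:CO replicate 1, limma adjusted p was 0.101 for CDF1, 0.115 for CDF2 and 0.0688 for CDF3, and without replicate 2 it was 0.0736, 0.0837 and 0.0538, with differences of 1.37 to 1.87 throughout. CDF5 and CDF6 did not pass the filter on low values in those fits, since a single library was then above it. In seedlings both entered the fit only through the 35S:CO libraries, so they could hardly be called other than higher. Other measures moved with genotype in the same 4 libraries. The petal list, AP3 and PI, summed to 0.215 and 0.517 FPKM in Col-0 and to 2.47 and 2.73 FPKM in 35S:CO, and both genes were called higher (0.94 and 0.98). AP3 and PI are near the floor here and passed the filter only through the 35S:CO libraries, so a lower call was hardly possible. The 4 stamen, pollen and anther markers summed to 13.6 to 13.7 FPKM and to 30.1 to 35.2 FPKM, with VGD1 and A9 at 0 in all 4 libraries, and TUA1 of that list was called higher. The 5 green tissue markers summed to 18900 FPKM in both Col-0 libraries and to 21100 to 21500 FPKM in 35S:CO, and 2 of them were called higher, LHCB2.1 by 3.82 and CAB1 by 1.13. The 4 phloem companion cell markers summed to 120 to 124 FPKM in Col-0 and 117 to 134 FPKM in 35S:CO, where SUC2 was called lower (-0.54) and AHA3 higher (0.44). The LHCB2.1 call held in all 9 alternatives tried, and those of CAB1, SUC2 and AHA3 in 5, 5 and 3 of 9. The part of these differences in the CDF result was not tested. In bulk tissue, fewer cells that express a gene and less RNA per cell cannot be told apart.

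In petals at ZT4 no CDF gene was called between 35S:CO and Col-0 by limma. The background there was 0.106% of 17876 genes called in either direction, and 1 member, CDF6, had an unadjusted p under 0.05. CDF6 differed by 2.14 ± 0.42 (95% interval 1.22 to 3.06, limma adjusted p = 0.161). With quantile normalization CDF6 was called there (limma adjusted p = 0.0465). The other 5 differed by -0.52 ± 0.48 for CDF1 to 0.26 ± 0.52 for CDF4. For the abundant members the intervals were -1.24 to 0.60 for CDF3 and -0.76 to 0.61 for CDF5. The rises of these genes in seedlings, measured at ZT16, lie outside them on this log2 scale. Tissue and time both differ between these comparisons, and both genes were far lower in seedlings, so the sizes are not directly comparable.

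In petals at ZT16, 2 of the 6 genes were called, both higher in 35S:CO, where 0.856% of all genes were called higher. CDF3 rose by 2.14 ± 0.42 (limma adjusted p = 0.0352) and CDF5 by 1.75 ± 0.31 (limma adjusted p = 0.0241), or 5.33 and 3.97 times in mean FPKM. CDF6 was higher by 1.99 ± 0.42 and missed the threshold (limma adjusted p = 0.0502). It passed with quantile normalization (limma adjusted p = 0.0219) and without co-10 ZT4 replicate 2 (limma adjusted p = 0.0301). CDF1 (0.69 ± 0.48), CDF2 (0.46 ± 0.32) and CDF4 (0.29 ± 0.52) were not called. The median over the 6 genes was 1.22, against 0.00 over all genes. When any 1 of the 4 libraries compared was left out, neither CDF3 nor CDF5 was called, with limma adjusted p from 0.0868 to 0.354 for CDF3 and from 0.104 to 0.293 for CDF5, while their differences stayed between 1.77 and 2.50 and between 1.54 and 1.96. CDF3 also missed the threshold with a pseudocount of 0.1 (adjusted p = 0.0591, limma) and with no filter (adjusted p = 0.0713, limma).

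Beside these ZT16 calls, the petal markers AP3 and PI summed to 1070 to 1430 FPKM in 35S:CO petals and 731 to 960 FPKM in Col-0 petals, with no overlap. The green tissue markers summed to 2720 to 2940 FPKM in 35S:CO petals and 868 to 1200 FPKM in Col-0 petals, and RCA of that list was called higher (2.69, in 7 of 10 alternatives). The phloem companion cell markers summed to 526 to 536 FPKM against 335 to 377 FPKM. The stamen, pollen and anther markers summed to 695 to 941 FPKM against 1320 to 2140 FPKM, with A9 and AMS at 0 in both groups. The xylem markers, 3.28 to 4.82 FPKM against 2.50 to 8.44 FPKM, and the carpel and ovule markers, 2.18 to 3.30 FPKM against 1.90 to 5.52 FPKM, overlapped. The part of these in the CDF differences was not tested.

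With both times and both other genotypes joined, 35S:CO petals were set against the mean of Col-0 and co-10. CDF6 was called higher by 1.99 ± 0.26 (n = 4 against 8 libraries, limma adjusted p = 0.00247) and CDF5 by 0.89 ± 0.19 (limma adjusted p = 0.0393). Higher calls made up 1.33% of all genes. CDF3 was higher by 0.75 ± 0.26 and was not called (limma adjusted p = 0.205), and CDF1, CDF2 and CDF4 differed by 0.11 to 0.37. This comparison shares its libraries with the preceding petal comparisons and is not a separate line of evidence. The CDF6 call held in all 17 alternatives tried, with differences of 1.84 or more. In petals CDF6 reached 1 FPKM only in 35S:CO libraries, so it entered the fit through the group where it was high. Every alternative kept libraries of that group, so the count of alternatives does not remove this limit. The CDF5 call held in 8 of 17: leaving out any single Col-0 or 35S:CO petal library, or the filter, moved its limma adjusted p to between 0.0523 and 0.279.

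Loss of CO was not accompanied by a detected change of any CDF gene. Between co-10 and Col-0 petals, limma called 0 of the 6 at ZT4, at ZT16 or over both times, and none had an unadjusted p under 0.05. Among all genes 0.0224% were called at ZT4, 0.0224% at ZT16 and 0.0392% over both times. The counts at ZT4 and over both times depended on the libraries included. They moved most without co-10 ZT4 replicate 1, a library that the ZT16 contrast does not compare. Over both times the differences were -0.05 ± 0.34 for CDF1, 0.04 ± 0.23 for CDF2, 0.33 ± 0.30 for CDF3, -0.19 ± 0.37 for CDF4, -0.10 ± 0.22 for CDF5 and 0.14 ± 0.29 for CDF6. The 95% intervals ran from -0.46 to 0.54 for CDF2 and from -0.59 to 0.38 for CDF5, and from -0.80 to 0.71 for CDF1; that of CDF4 was wider. These intervals give the changes compatible with 4 against 4 libraries and are not limits of detection. A change outside them can also miss the threshold after adjustment over all genes. For CDF6 the interval over both times was -0.51 to 0.79 and for CDF3 -0.32 to 0.98. The 35S:CO differences over both times, against the mean of Col-0 and co-10, were 1.99 for CDF6 and 0.75 for CDF3. The CDF3 value lies inside its co-10 interval. At ZT16 alone the co-10 intervals were -0.98 to 0.85 for CDF6 and -0.45 to 1.39 for CDF3. The 35S:CO differences at that time were 1.99 and 2.14, with the same Col-0 libraries.

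**Figure D2:**
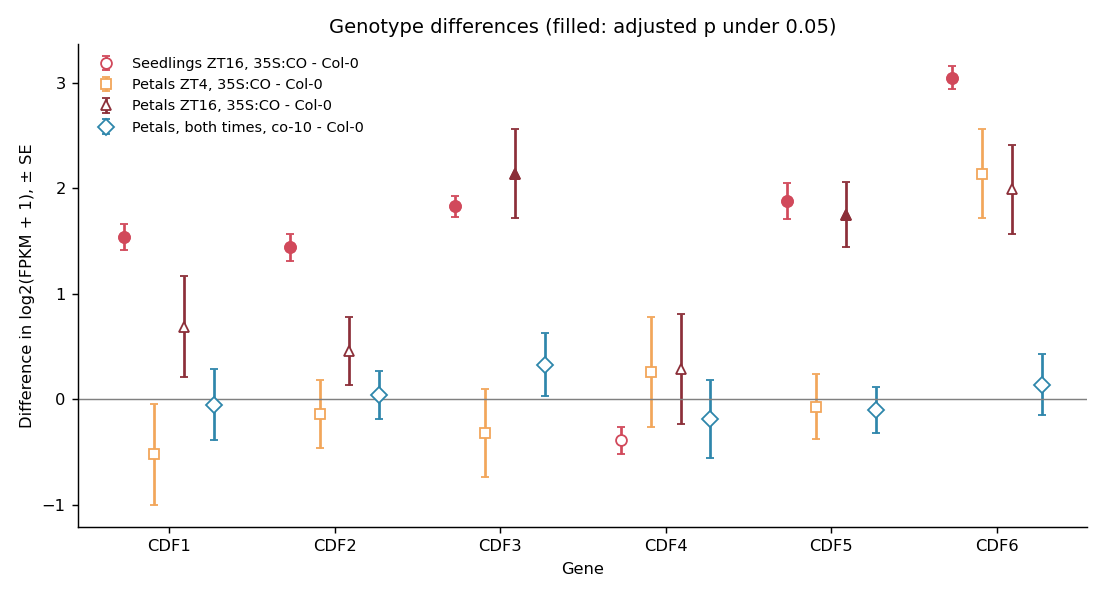
Difference in log2(FPKM + 1) for each CDF gene between genotypes, ± SE from the limma fit, for 35S:CO minus Col-0 in seedlings (circles), ZT4 petals (squares) and ZT16 petals (triangles), and for co-10 minus Col-0 petals over both times (diamonds); filled symbols passed the test. The seedling circles lie above 1.4 for all members but CDF4, and each co-10 diamond is within 0.33 of 0.

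Whether the 35S:CO difference itself varied was tested as an interaction. Between ZT16 and ZT4 in petals it was larger at ZT16 by 2.46 ± 0.59 for CDF3 (limma adjusted p = 0.293, unadjusted p = 0.00159) and by 1.83 ± 0.44 for CDF5 (limma adjusted p = 0.299, unadjusted p = 0.00167). For CDF6 the interaction was -0.15 ± 0.59, with a 95% interval of -1.45 to 1.14. limma called 0 of the 6 genes, with 2 at an unadjusted p under 0.05, where 0.0224% of all genes were called. A difference between times in the response of CDF3 and CDF5 was therefore not established over the whole table. The interaction of co-10 with time was called for none of the 6 either, none at an unadjusted p under 0.05, against 0.0224% of all genes, where the median over all genes was 0.14.

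Between petals and seedlings at ZT16 the response to 35S:CO was smaller in petals by 1.07 on the log2 scale for CDF6 (-1.07 ± 0.41, limma adjusted p = 0.363) and likewise for CDF2 (-0.98 ± 0.37, limma adjusted p = 0.353). For CDF3 the interaction was 0.31 ± 0.54 and for CDF5 -0.13 ± 0.39. Of the 6 genes limma called 0, with 2 at an unadjusted p under 0.05, against 1.55% of all genes. The larger number of CDF calls in seedlings was thus not shown to be a difference between tissues, and the seedling libraries were also the deeper ones.

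Time of day went with lower CDF3 and CDF5 levels in the evening petals of Col-0. There, CDF3 fell by 5.90 on the log2 scale from ZT4 to ZT16 (-5.90 ± 0.42, limma adjusted p = 2.69e-05), 75.0 times in mean FPKM, and CDF5 fell by 2.54 (-2.54 ± 0.31, limma adjusted p = 0.000531), 6.94 times. Lower calls made up 6.81% of all genes. CDF1 (-0.86 ± 0.48), CDF2 (-0.37 ± 0.32), CDF4 (1.51 ± 0.52) and CDF6 (0.06 ± 0.42) were not called, CDF4 with an adjusted p of 0.0749 by limma. The CDF3 and CDF5 calls held in all 10 alternatives tried. The summed FPKM of the 6 genes was 270 and 357 at ZT4 and 25.8 and 20.6 at ZT16 in Col-0, 292 and 227 against 52.3 and 69.7 in 35S:CO, and 306 and 378 against 24.9 and 26.4 in co-10.

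In co-10 petals the same pair was called lower at ZT16, against 4.79% of all genes called lower. CDF3 fell by 5.62 (-5.62 ± 0.42, limma adjusted p = 3.04e-05) and CDF5 fell by 1.66 (-1.66 ± 0.31, limma adjusted p = 0.00627). CDF4 was called higher by 2.26 ± 0.52 (limma adjusted p = 0.0164), against 8.51% of all genes called higher. The median over all genes was 0.21 in this comparison, in the direction of CDF4. Without co-10 ZT4 replicate 2, in which CDF4 was listed at 0, or without co-10 ZT16 replicate 2, limma adjusted p for CDF4 was 0.0825 or 0.117. CDF1 differed by -1.54 ± 0.48 and was not called (limma adjusted p = 0.0589); it was called with quantile normalization (-1.74, adjusted p = 0.0282) and without co-10 ZT16 replicate 1 (adjusted p = 0.0419).

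In 35S:CO petals CDF3 alone of the 6 was called lower at ZT16, against 1.21% of all genes. It fell by 3.45 (-3.45 ± 0.42, limma adjusted p = 0.00289), 11.2 times in mean FPKM. CDF5 differed by -0.71 ± 0.31 (limma adjusted p = 0.252), from 28.1 and 27.2 FPKM at ZT4 to 14.1 and 19.3 FPKM at ZT16. CDF4 was higher at ZT16 by 1.55 ± 0.52 and not called (limma adjusted p = 0.129). Marker lists moved between the times as well. The green tissue markers summed at ZT4 and ZT16 to 2540 to 3530 and 868 to 1200 FPKM in Col-0, 4130 to 4520 and 2720 to 2940 FPKM in 35S:CO, and 2460 to 3290 and 541 to 1490 FPKM in co-10. The phloem markers summed to 132 to 228 and 335 to 377 FPKM in Col-0, 230 to 274 and 526 to 536 FPKM in 35S:CO, and 191 to 269 and 391 to 456 FPKM in co-10. The stamen, pollen and anther markers summed to 503 to 1100 and 1320 to 2140 FPKM in Col-0 and to 1440 to 1640 and 1800 to 3160 FPKM in co-10, but overlapped in 35S:CO at 634 to 816 and 695 to 941 FPKM. The petal markers summed to 1280 to 1840 and 731 to 960 FPKM in Col-0, 1310 to 1620 and 1070 to 1430 FPKM in 35S:CO, where they overlapped, and 1300 to 1590 and 753 to 948 FPKM in co-10. LHCB2.1 of the green list was called lower at ZT16 in each genotype (-6.59 in Col-0, -3.79 in 35S:CO and -6.09 in co-10). The part of all these in the time-of-day results was not tested.

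**Figure D3:**
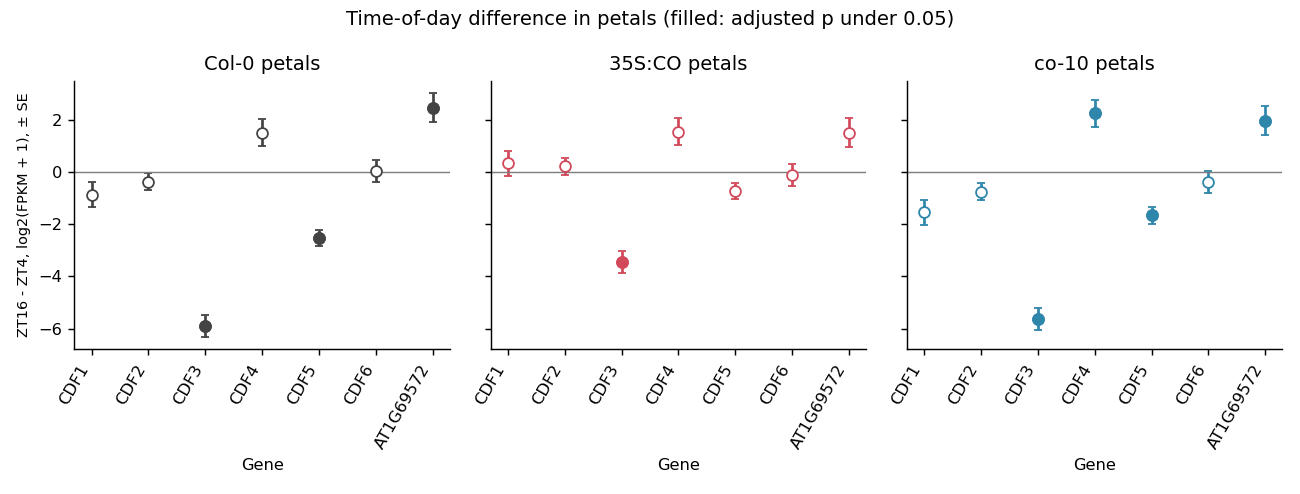
Difference between ZT16 and ZT4 in petals of each genotype, in log2(FPKM + 1) ± SE from the limma fit, for the 6 CDF genes and for AT1G69572, the locus on the opposite strand of CDF5; filled points passed the test. CDF3 lies lowest in each panel, at -5.90 in Col-0, -3.45 in 35S:CO and -5.62 in co-10.

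Wild-type tissues were compared at ZT16, where Col-0 petals held more CDF2 and CDF5 than Col-0 seedlings. CDF2 was higher by 1.79 ± 0.26 (limma adjusted p = 0.000111), 4.94 times in mean FPKM, and CDF5 by 1.71 ± 0.27 (limma adjusted p = 0.000224), 6.94 times. Higher calls made up 18.9% of all genes, and the median over all genes was -0.74. CDF1 (-0.26 ± 0.41), CDF3 (-0.11 ± 0.38), CDF4 (0.99 ± 0.44) and CDF6 (0.03 ± 0.29) were not called. After quantile normalization CDF3 was called higher in petals, by 0.94 (limma adjusted p = 0.0277), and so was CDF4 (limma adjusted p = 0.000904), so the direction for CDF3 depends on the scaling.

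AT1G69572 is annotated on the plus strand at chr1:26161551-26162791, and all 1241 of its bases lie opposite CDF5. The library kit kept the strand, but no source used here gives the setting used in counting, so reads of the pair may not be fully separated. AT1G69572 was at 0.181 and 0 FPKM in Col-0 petals at ZT4 and at 4.09 and 6.20 FPKM at ZT16, opposite in order to CDF5. In co-10 petals it was listed at 0 at ZT4 and stood at 1.91 and 4.32 FPKM at ZT16. The 35S:CO petals held 0 and 0.137 FPKM of it at ZT4, then 4.58 and 0.683 FPKM. The difference between times was 2.48 ± 0.55 in Col-0 (limma adjusted p = 0.0124; 4.94 with a pseudocount of 0.1) and 1.52 ± 0.55 in 35S:CO (limma adjusted p = 0.161). In co-10 limma called it too (adjusted p = 0.0386, and in 4 of 9 alternatives), and its fitted size depends on the pseudocount there too. In seedlings AT1G69572 was at 1.56 and 1.77 FPKM in Col-0 and at 0.268 and 0.832 FPKM for 35S:CO, a difference of -0.80 ± 0.21 that was not called (limma adjusted p = 0.071). The Col-0 time call was lost without either Col-0 ZT4 library or without Col-0 ZT16 replicate 2 (limma adjusted p 0.0638 to 0.0851).

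Among the clock genes that act on CDF transcription, 5 of 6 were called higher in 35S:CO seedlings by limma, against 5.5% of all genes. The rises were 2.76 ± 0.09 for PRR7, 2.69 ± 0.09 for PRR5 and 2.52 ± 0.11 for PRR9, the repressors of CDF genes. LHY rose by 2.65 ± 0.12 and CCA1 by 2.12 ± 0.14, the dawn-phased MYB factors, while TOC1 differed by 0.01 ± 0.11. The median of the list was 2.59 against -0.09 over all genes. CCA1, LHY and PRR9 averaged 0.544, 0.849 and 0.219 FPKM in Col-0 seedlings and passed the filter on low values only through the 35S:CO libraries. Genes that enter a fit in this way could hardly be called other than higher. The share of this list called and its median are therefore a description and not a test. PRR7 went from 2.96 and 3.11 FPKM in Col-0 to 25.6 and 27.0 FPKM in 35S:CO, with no overlap. In petals at ZT16 LHY was the 1 gene of this list called, by 2.76 ± 0.48 (limma adjusted p = 0.0215). LHY was also called over both times, by 1.83 ± 0.30 (limma adjusted p = 0.0102). Higher calls made up 0.856% of all genes at ZT16 and 1.33% over both times. The ZT16 call of LHY was lost without Col-0 replicate 1 or without either 35S:CO library (limma adjusted p 0.0658 to 0.254). The call over both times was lost without 35S:CO ZT4 replicate 1 or ZT16 replicate 2 (limma adjusted p = 0.0789 and 0.0746). Between co-10 and Col-0 limma called 0 of the 6 clock genes at either time, with 0 at an unadjusted p under 0.05. The share called over all genes was 0.0224% at each time.

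Across the day in Col-0 petals, CCA1 (-3.65 ± 0.37), LHY (-2.74 ± 0.48), PRR9 (-2.52 ± 0.41) and PRR7 (-2.23 ± 0.38) were called lower at ZT16, as CDF3 and CDF5 were. Lower calls made up 6.81% of the 17876 genes tested, and 1530 genes were called higher. TOC1, an evening gene, was called higher (2.82 ± 0.32), and PRR5 was not called (1.41 ± 0.58).

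Of the 4 genes for CDF protein turnover, GI alone was called in 35S:CO seedlings, where 5.5% of all genes were called higher. GI stood at 3.45 and 2.94 FPKM in Col-0 and at 34.4 and 36.3 FPKM for 35S:CO, a rise of 3.12 ± 0.10 (limma adjusted p = 0.000618). FKF1, the F-box protein that targets CDF proteins, was at 11.8 and 11.3 FPKM in Col-0 and at 8.47 and 8.94 FPKM for 35S:CO, and its difference of -0.37 ± 0.09 was not called (limma adjusted p = 0.056). Its paralogs ZTL (0.12 ± 0.08) and LKP2 (0.10 ± 0.10) were not called. In petals limma called 0 of the 4 between 35S:CO and Col-0 at either time. Over all 17876 genes it called 19 at ZT4 and 204 at ZT16. At an unadjusted p under 0.05 there was 1 of the 4 at ZT4 (ZTL, -1.15 ± 0.34) and 1 at ZT16 (FKF1, -1.29 ± 0.42). FKF1 was listed at 0 in the 4 petal libraries of Col-0 and co-10 at ZT4 and stood at 13.5 and 9.84 FPKM in Col-0 and 10.9 and 16.6 FPKM in co-10 at ZT16.

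The 5 TOPLESS corepressor genes and the 4 FBH genes, which encode activators of CO, gave 0 calls between 35S:CO and Col-0 by limma in seedlings or petals. Over all genes limma called 2252 of 19214 in seedlings, and of 17876 in petals 19 at ZT4 and 204 at ZT16. At an unadjusted p under 0.05 there were 0 of the TOPLESS genes in any of these comparisons, and of the FBH genes 3 in seedlings, 0 in petals at ZT4 and 1 in petals at ZT16. Of the targets of the CDF proteins, FT and TSF, which encode the flowering signal and its close relative, were called higher with CO itself in 35S:CO seedlings and in 35S:CO petals at ZT16. In seedlings TSF averaged 0.444 FPKM in Col-0 and passed the filter only through the 35S:CO libraries. FT went from 2.18 and 3.28 FPKM to 157 and 165 FPKM in seedlings, a rise of 5.46 ± 0.16 (limma adjusted p = 0.000589), in the libraries where 5 CDF genes were higher. The TSF call at ZT16 in petals was lost without Col-0 replicate 1 or 35S:CO replicate 1 and with a pseudocount of 0.1 (limma adjusted p 0.103 to 0.164). In petals FT was called at ZT4 too, by 6.26 ± 0.71 (limma adjusted p = 0.00511), a call lost without Col-0 replicate 2, without 35S:CO replicate 1 and with a pseudocount of 0.1 (limma adjusted p 0.052 to 0.198).

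The other DOF genes served as the family background. Of 30 listed, 22 were tested in seedlings, and 3 were called higher and 0 lower in 35S:CO. These were AT2G37590 (1.05 ± 0.11), DAG2 (0.82 ± 0.09), which affects seed germination, and ADOF1 (0.49 ± 0.10). None of the 3 was called without either 35S:CO seedling library (limma adjusted p 0.0903 to 0.268), and ADOF1 was called in 3 of 9 alternatives. The median of the 22 was -0.14, against 1.68 for the 6 CDF genes. Over all genes, higher calls made up 5.5% in seedlings and 0.856% in petals at ZT16. In petals at ZT16, 1 of 18 was called, AT2G37590, at 0 in both Col-0 libraries and at 2.69 and 3.72 FPKM in 35S:CO (limma adjusted p = 0.0209), and this call was lost when any 1 of the 4 libraries compared was left out or with a pseudocount of 0.1 (limma adjusted p 0.0737 to 0.257). Over both times, with co-10 added to the controls, AT2G37590 was called higher by 1.81 ± 0.22 (limma adjusted p = 0.00176) in all 17 alternatives tried, as CDF6 was. Between co-10 and Col-0 limma called 0 of the 18, with 0 at an unadjusted p under 0.05 at ZT4 and 1 at ZT16. The share called over all genes was 0.0224% at each of these times. Across the day in Col-0 petals AT1G29160, a DOF gene with no symbol in the annotation used, was at 2.88 and 3.83 FPKM at ZT4 and at 26.7 and 23.5 FPKM at ZT16, a rise of 2.59 ± 0.40 (limma adjusted p = 0.00179) in the direction of CDF4. OBP2 was also called higher there (1.52 ± 0.37), a call lost when any 1 of the 4 libraries compared was left out (limma adjusted p 0.0759 to 0.0904), and ADOF1 (-2.51 ± 0.40), OBP4 (-2.44 ± 0.42) and OBP1 (-2.03 ± 0.39) lower.

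**Figure D4:**
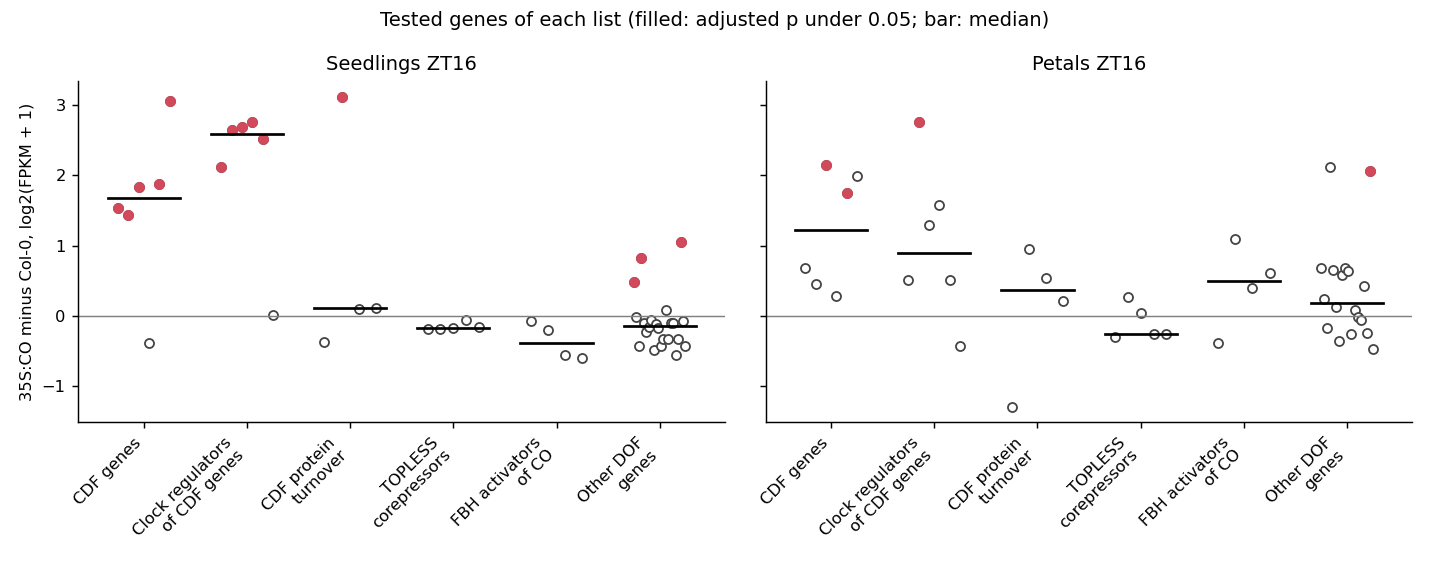
Difference between 35S:CO and Col-0 at ZT16, in log2(FPKM + 1), for each tested gene of 6 lists in seedlings (left) and petals (right); filled points passed the test and bars are medians. In seedlings the CDF genes (median 1.68) and their clock regulators (median 2.59) lie above the other DOF genes (median -0.14).

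Over the 12 petal libraries, which share genotype and time groups, CDF3 and CDF5 ran together (Pearson r = 0.90) and CDF3 and CDF4 opposite (r = -0.88). CDF6 followed neither CDF3 (r = 0.20) nor CDF4 (r = 0.10). Among 17875 other genes, the pattern most like that of CDF3 was shown by STO (r = 0.997), a B-box gene, followed by AT4G29905 (r = 0.995) and AT1G19450 (r = 0.994). BBX30 (r = 0.97), AT3G28220 (r = 0.962) and AT1G32780 (r = 0.961) were nearest to CDF5, and BBX30 encodes a B-box protein too. AT1G21050 (r = 0.978), AT2G38905 (r = 0.958) and CO (r = 0.956) were nearest to CDF6. For CDF4 they were AT1G74010 (r = 0.974), MPK5 (r = 0.972), a mitogen-activated protein kinase, and AT2G16050 (r = 0.971). CDF2 was most like TIFY7 (r = 0.867), a jasmonate signalling repressor, HIPP25 (r = 0.845) and AT1G20120 (r = 0.816), and CDF1 most like AT1G69760 (r = 0.906), AT4G13100 (r = 0.897) and AT5G63150 (r = 0.889). These correlations describe the libraries and were not tested.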

How the data were processed

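The data were stranded mRNA libraries, per the labels' protocols. HISAT2, FastQC and TAIR10 appear in the submitters' processing notes; how transcripts were quantified was not stated there. The authors deposited FPKM in 1 column per library, a unit read from the values. Depth was estimated from the steps between low values, and no counting interval is given because FPKM are not counts.

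Expression was analysed as log2(FPKM + 1) after a filter that required 1 FPKM in 2 or more of the libraries fitted. Group means over the 4 seedling, 12 petal or all 16 libraries were fitted with limma 3.58.1 (trended, robust prior, statmod 1.5.0, R 4.3.3). These differences understate the change of low genes. Tests were two-sided, with Benjamini-Hochberg adjustment over all genes of a fit, and a gene was called at an adjusted p under 0.05. The procedure was also run on simulated libraries with independent normal noise. Shifts were added there only to better expressed genes, so levels as low as those of CDF6 were not covered. No result above rests on that run. An exact permutation test of 2 against 2 libraries cannot go below p = 0.333.

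Of 32833 loci, 32548 matched TAIR10.1 by identifier, which gave symbols and positions; the names CDF4, CDF5 and CDF6 were not in that annotation and are the usual names of these loci. The members, lists, motifs and tests were chosen with earlier results of these data known. By rule, the 6 members are named in every comparison, genes of the lists may be named, and the 3 genes most correlated with each member over the petal libraries are given. Alternatives were a pseudocount of 0.1, no filter, rescaling without rRNA and organelle loci, quantile normalization, a replicate block and leaving out each library; leaving out the shallowest petal library from every petal comparison was added after seeing the data.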

Additional observations from a re-analysis of the deposited data

Results flagged for a closer look

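The difference between 35S:CO and Col-0 at ZT16 in CO itself was larger in petals than in seedlings, by 2.31 ± 0.35 on the log2(FPKM + 1) scale (limma interaction with tissue, adjusted p = 0.00728). In petals CO went from 0.0376 and 0.191 FPKM to 625 and 507 FPKM, and in seedlings from 1.91 and 2.098 FPKM to 315 and 297 FPKM. The value was 0.91 with quantile normalization (adjusted p = 0.62) and 4.27 with a pseudocount of 0.1 (adjusted p = 0.0917), and the call was also lost without seedling 35S:CO replicate 2 (adjusted p = 0.054) or petal 35S:CO replicate 1 (adjusted p = 0.0517), all by limma. No CDF gene showed an interaction with tissue that passed the test.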

How the results depend on the processing

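Of the 17 calls of CDF genes, none changed direction under any alternative; over 944 member values, 52 changed sign where neither value was called, and 1 did where the alternative was called, CDF3 between Col-0 petals and seedlings (0.94 with quantile normalization, -0.11 otherwise). The causes of the changes below were not tested.

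With a pseudocount of 0.1, genes called went from 204 to 121 for 35S:CO at ZT16, with 1 CDF gene (CDF5) for 2. They went from 4 to 23 (ZT4), 4 to 8 (ZT16) and 7 to 12 (both times) for co-10, from 757 to 461 for time in 35S:CO, from 4 to 14 for co-10 with time and from 329 to 125 for 35S:CO with tissue. With no filter, 1 CDF gene was called at ZT16 and 1 (CDF6, for 2) over both times in 35S:CO, and genes called were 7, 9 and 4 for co-10 at ZT4, ZT16 and both times, 9 for co-10 with time and 883 for 35S:CO with tissue. Rescaling left 3 for co-10 over both times. Quantile normalization gave 32 for 35S:CO at ZT4 (from 19), with 1 CDF gene (CDF6) for 0, 9 for co-10 at ZT16, 2 for co-10 with time, and 4 CDF genes for 2 between tissues.

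No pairing of libraries by replicate number was assumed. Deviations of same-numbered libraries correlated at -0.02 in the 1 pair of seedling groups. In petals they correlated at -0.3 to 0.23, and over 0.1 in 5 of 15 pairs of groups. Whether same-numbered libraries share a batch cannot be told from these values. With the replicate block 1178 genes (from 2252) were called in seedlings, 2 for co-10 over both times, 7 for 35S:CO with time and 2 for co-10 with time; CDF1 over time in co-10 became called (-1.54, limma adjusted p = 0.0455), and no CDF call was lost.

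Leaving out 1 library at a time, CDF genes called ranged from 0 to 5 in seedlings, 0 to 3 for 35S:CO at ZT16, 1 to 2 over both times and 2 to 4 for time in co-10. Genes called ranged from 54 to 3129 in seedlings, 7 to 27 and 48 to 247 for 35S:CO at ZT4 and ZT16, and 128 to 613 over both times. For co-10 they ranged from 0 to 685 at ZT4, 2 to 8 at ZT16 and 0 to 263 over both times; 685 and 263 came without co-10 ZT4 replicate 1, and 8 without co-10 ZT16 replicate 1. For time they ranged from 1189 to 3310 in Col-0, 39 to 1072 in 35S:CO and 896 to 3138 in co-10, and for interactions from 1 to 10 (35S:CO with time), 0 to 294 (co-10 with time) and 121 to 334 (35S:CO with tissue). No CDF gene was called for co-10 against Col-0 under any of these. Without the shallowest petal library, co-10 ZT4 replicate 2 at about 5219000 estimated reads, 22 genes were called for co-10 at ZT4.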

Other observations

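The promoter windows of CDF2, CDF3 and CDF6 share a stretch of 9 bases, CTTGTGGCT, at -95, -13 and -46 from the annotated start. The stretch lies around a CCACA match on the strand opposite to the gene. CTTGTGGCT occurs on either strand in 52 of 27443 promoter windows, or 0.189%. The stretch was chosen after the windows were read, as the longest one common to any of 20 trios of members, where the next longest had 8 bases, and no test was made of it.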
